A study of Mus musculus with 9 samples.

Results

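Aminoacyl-tRNA synthetases were followed in murine Tc17 cells, the CD8+ T cells that make IL-17, under dimethyl fumarate (DMF) alone and together with glutathione (GSH). The members were 36 genes chosen by symbol out of the 41388 in the table: 20 that encode the cytosolic enzymes and 16, with symbols ending in 2, that encode the mitochondrial ones. All 36 were found, and all 36 were among the 11599 genes whose mean normalized count reached the minimum of 10. The study asked how DMF, a drug given in multiple sclerosis, changes Tc17 cells and whether GSH, an antioxidant, prevents it. Naive CD62L+CD44-CD8+ T cells were sorted from lymph nodes and spleen of wild-type C57BL/6 mice, aged 8 to 12 weeks by the methods, and were primed for 2 days. Priming in every group used anti-CD3 at 5 µg/ml, anti-CD28 at 0.5 µg/ml, anti-IFN-γ at 5 µg/ml, IL-2 at 50 U/ml, IL-6 at 30 ng/ml and TGF-β at 0.5 ng/ml. All groups were in 0.2% DMSO, which Ctrl cells received alone, while DMF at 20 µM was added for DMF cells and the same DMF dose with GSH at 50 µM for DMF + GSH cells. Each group had 3 poly(A)-selected libraries, numbered 1 to 3. Replicate 1 of each group was in preparation batch 1, and replicates 2 and 3 were in batch 2. The labels do not say whether the numbers stand for separate animals or cultures, so p-values measure the spread between these libraries only.

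These enzymes join each amino acid to its own tRNA, the step that sets which residue a codon stands for. Most amino acids have separate nuclear genes for the cytosolic enzyme and for the enzyme that is imported into mitochondria to serve the organelle's own ribosomes, whereas a few genes serve both compartments. Tissues that make much protein, activated T cells among them, need charged tRNA in quantity, and uncharged tRNA is sensed by the kinase GCN2 (Eif2ak4), which favours translation of the transcription factor ATF4. Many cytosolic synthetase genes are textbook targets of ATF4, along with genes of amino acid synthesis and uptake.

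Recovered depth ran from 7671772 reads (Ctrl replicate 3) to 14511926 (DMF + GSH replicate 2), and reads were found for 16659 to 20342 genes. For the CD8+ T cell label, Cd8a and Cd3e had mean normalized counts of 10146 and 4779 in Ctrl, and Cd4 was at 0 to 4.40 over the 9 libraries. Of the 9 T cell and Tc17 markers listed, 7 were called lower and 1, Cd8a, was called higher in DMF than in Ctrl, where 15.6% of all genes tested were called lower and 17.6% higher. With the preparation batch as covariate in place of the replicate number, 3 of the 9 were called lower and 0 higher, where 3.60% of all genes tested were called in each direction. Markers of other cells, which were Cd4 and genes of B cells, myeloid cells, natural killer cells, red cells and platelets (16 genes, of which 2 passed the minimum) summed to 87.3 to 313 normalized counts in Ctrl, 60.3 to 74.5 in DMF and 89.5 to 107 in DMF + GSH, with the 4 haemoglobin genes and Pf4 at 0 in all 9 libraries. Ctrl replicate 3 stood apart in 3 of the myeloid markers, with Lyz2 at 119, Csf1r at 58.3 and Adgre1 at 45.5, where the highest of the other 8 libraries held 10.6, 5.83 and 4.84. The counts and medians of the cytosolic and of the mitochondrial genes in DMF against Ctrl are also given without Ctrl replicate 3, whereas the pairs, the summed levels and the further lists are given with it only. In bulk RNA a change in the number of cells of a type and a change in RNA per cell cannot be told apart.

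In Ctrl cells the cytosolic genes were expressed far above the mitochondrial ones. Per kilobase of exon, mean normalized counts of the cytosolic genes ran from 173 for Cars, the cysteine enzyme, to 1161 for Gars, the glycine enzyme, with a median of 506. The mitochondrial genes ran from 14.0 for Ears2, which charges glutamate, to 164 for Iars2, which charges isoleucine, with a median of 74.1. The level per kilobase was higher in the cytosolic gene in all 17 cytosolic and mitochondrial combinations that charge the same amino acid, by 2.36 times for Tars over Tars2 up to 38.5 times for Nars over Nars2. The order at the top was close: Gars and Vars, the valine enzyme, stood at 1161 and 1151 normalized counts per kilobase, less apart than the Ctrl libraries of Gars, whose counts were 3233, 3204 and 4422. Summed over the 20 genes, cytosolic synthetase transcripts took 0.444%, 0.444% and 0.519% of all reads in Ctrl replicates 1 to 3. The 16 mitochondrial genes together took 0.0657%, 0.0613% and 0.0649%.

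Transcripts of the cytosolic enzymes rose under DMF nearly across the set. Of the 20 genes, 18 were called higher in DMF than in Ctrl and 0 lower by limma-trend on log2(normalized count + 1) with the replicate number as a block (adjusted p under 0.01 over all genes tested), where 17.6% of all genes tested were called higher and 15.6% lower. The median log2 fold change (log2FC) was 0.45, against 0.005 over all genes tested, and the 18 called genes rose by 13.9% to 56.1%. In the same 18 genes all 3 DMF libraries lay above all 3 Ctrl libraries, a pattern found in 21.6% of all genes tested. By replicate number the median log2 difference was 0.52 for replicate 1, the only one in batch 1, and 0.49 and 0.31 for replicates 2 and 3 of batch 2. The study's own model was DESeq2 with batch as the covariate. DESeq2 with batch on the recovered reads called 14 of 20 higher, where it called 8.29% of all genes higher, and of the 18 it did not call Aars, Dars, Gars and Wars. In limma-trend with batch in place of the block, the fold changes were identical but the calls fell to 4 of 20 (Farsa, Hars, Kars and Nars), with 3.60% of all genes called higher, and adjusted p for the 20 genes ran from 0.00457 to 0.269. Adjusted p given with the batch covariate is that of limma-trend. Without Ctrl replicate 3, the library with the myeloid transcripts, 17 of 20 were called higher and the median was 0.46. In that fit 1651 of the 11599 genes tested were called higher.

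**Figure D1:**
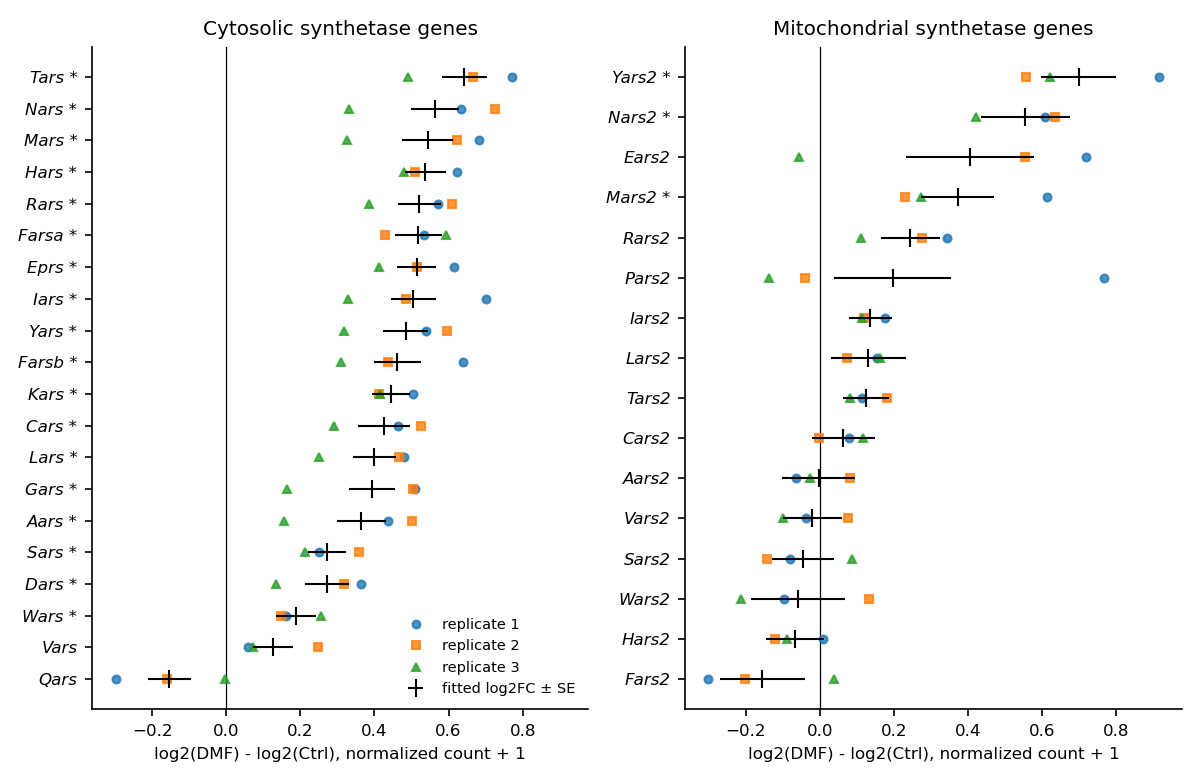
Log2 difference of DMF over Ctrl, on the log2(normalized count + 1) scale, for the 20 cytosolic (left) and 16 mitochondrial (right) synthetase genes; coloured points are the 3 replicate numbers, black ticks with bars the fitted log2FC ± SE, and asterisks mark genes called at an adjusted p under 0.01. All 3 points lie above 0 in 19 of 20 cytosolic genes and in 7 of 16 mitochondrial genes, as in 34.3% of all genes tested. Replicate 3 (green) is often the lowest point among the cytosolic genes.

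Tars, the threonine enzyme (chr15:11382301-11399665, minus strand, GRCm38), changed the most among the cytosolic genes. It was at 1691, 1641 and 2204 normalized counts in Ctrl replicates 1 to 3, 2888, 2604 and 3096 in DMF and 1759, 1662 and 2275 in DMF + GSH. Every DMF library lay above every Ctrl and every DMF + GSH library, and the rise was 56.1% (log2FC 0.64 ± 0.06 (SE), adjusted p = 1.08e-07; 0.0110 with the batch covariate). Nars, which charges asparagine, was at 2724, 2691 and 3532 normalized counts in Ctrl replicates 1 to 3, 4224, 4451 and 4442 in DMF and 2765, 2731 and 3506 in DMF + GSH. Its 3 DMF libraries lay within a narrow span while the third library of Ctrl and of DMF + GSH was the highest of its group (log2FC 0.56 ± 0.07 (SE), adjusted p = 1.49e-06). Mars, the methionine enzyme that also serves initiation, was at 1869, 1871 and 2483 normalized counts in Ctrl replicates 1 to 3, 2999, 2879 and 3114 in DMF and 1839.5, 1812 and 2523 in DMF + GSH. DMF was above both other groups, which overlapped, and again replicate 3 was high in Ctrl and in DMF + GSH (log2FC 0.54 ± 0.07 (SE), adjusted p = 3.61e-06; 0.0172 with the batch covariate). Of its exon bases, 68 are shared with the opposite-strand gene Ddit3, whose mean in Ctrl was 165 normalized counts.

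The histidine enzyme Hars was at 1545, 1633 and 1806 normalized counts in Ctrl replicates 1 to 3, 2379, 2325 and 2518 in DMF and 1567, 1642 and 1873 in DMF + GSH. DMF stood above both other groups in every library (log2FC 0.54 ± 0.06 (SE), adjusted p = 3.56e-07), and Hars was among the 4 genes called with either model. It shares 195 exon bases with its mitochondrial partner Hars2, which lies head to head with it on the other strand, and Hars2 had a log2FC of -0.07 (adjusted p = 0.515). Rars, the arginine enzyme, was at 1479, 1423 and 1928 normalized counts in Ctrl replicates 1 to 3, 2196, 2170.1 and 2519 in DMF and 1545, 1491 and 1759 in DMF + GSH. Its DMF libraries were the highest 3 of the 9 (log2FC 0.52 ± 0.06 (SE), adjusted p = 9.66e-07; 0.0120 with the batch covariate). The phenylalanine enzyme is built of an alpha and a beta chain from separate genes. Farsa, the alpha chain, was at 1107, 1156 and 1112 normalized counts in Ctrl replicates 1 to 3, 1603, 1555 and 1678 in DMF and 1077, 1163 and 1317 in DMF + GSH. Its Ctrl libraries were close together, replicate 3 included, and it was the only called cytosolic gene besides Wars whose largest log2 difference was in replicate 3 (0.53, 0.43 and 0.59 for replicates 1 to 3; log2FC 0.52 ± 0.06 (SE), adjusted p = 3.00e-06). Farsb, the beta chain, was at 1303, 1353 and 1714 normalized counts in Ctrl replicates 1 to 3, 2029, 1832 and 2124 in DMF and 1471, 1325 and 1745 in DMF + GSH. It rose to a similar extent without overlap (log2FC 0.46 ± 0.06 (SE), adjusted p = 1.00e-05), but was not called with the batch covariate (adjusted p = 0.0231).

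Eprs, a double enzyme that charges glutamate and proline and belongs to the multi-tRNA synthetase complex, was at 4179, 4170.0 and 5135 normalized counts in Ctrl replicates 1 to 3, 6403, 5958 and 6836 in DMF and 4340.3, 4283 and 5334 in DMF + GSH. DMF was above the other groups throughout (log2FC 0.51 ± 0.05 (SE), adjusted p = 3.68e-07), and with the batch covariate the adjusted p of 0.01003 was just above the threshold. Iars, the isoleucine enzyme of the same complex, was at 2355, 2475 and 3282 normalized counts in Ctrl replicates 1 to 3, 3831, 3464 and 4124 in DMF and 2437, 2391 and 3141 in DMF + GSH. The span between replicates was wide in each group, and the log2 differences were 0.70, 0.48 and 0.33 for replicates 1 to 3 (log2FC 0.51 ± 0.06 (SE), adjusted p = 2.52e-06; 0.0216 with the batch covariate). Yars, the tyrosine enzyme, was at 1286, 1280.1 and 1695 normalized counts in Ctrl replicates 1 to 3, 1868, 1934 and 2113 in DMF and 1291, 1247 and 1629.6 in DMF + GSH. The lowest DMF library was above the highest Ctrl library (log2FC 0.48 ± 0.06 (SE), adjusted p = 4.43e-06; 0.0172 with the batch covariate). Cars was at 1090.2, 1044 and 1273 normalized counts in Ctrl replicates 1 to 3, 1504, 1502 and 1556 in DMF and 1058, 1060.2 and 1430.3 in DMF + GSH. Its DMF libraries differed little among themselves and lay above the rest (log2FC 0.43 ± 0.07 (SE), adjusted p = 7.05e-05; 0.0233 with the batch covariate).

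Kars and Gars each encode both the cytosolic and the mitochondrial form, for lysine and glycine. Kars was at 3160.5, 3356 and 3682 normalized counts in Ctrl replicates 1 to 3, 4485, 4464 and 4906 in DMF and 3143, 3364 and 3848 in DMF + GSH. It rose in each replicate number, by 0.50, 0.41 and 0.41 on the log2 scale, and was called with the batch covariate too (log2FC 0.44 ± 0.05 (SE), adjusted p = 1.42e-06). Gars was at 3233, 3204 and 4422 normalized counts in Ctrl replicates 1 to 3, 4605, 4545 and 4955 in DMF and 3333, 3186 and 4089.6 in DMF + GSH. The highest Ctrl library came close to the lowest DMF library without reaching it, and the log2 difference was 0.51, 0.50 and 0.16 for replicates 1 to 3 (log2FC 0.39 ± 0.06 (SE), adjusted p = 4.55e-05; 0.0425 with the batch covariate). Lars (leucine), Aars (alanine), Sars (serine) and Dars (aspartate) were called as well, at log2FC 0.40, 0.36, 0.27 and 0.27, none of them by limma-trend with the batch covariate. DESeq2 with batch called Lars and Sars, and the call of Dars was also lost without Ctrl replicate 1 (adjusted p = 0.0114).

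The tryptophan, valine and glutamine enzymes stood lowest in the order. Wars, known as a gene induced by interferon-γ (blocked by antibody in all groups), was at 1968, 1983 and 1913 normalized counts in Ctrl replicates 1 to 3, 2202, 2196 and 2283 in DMF and 1892, 1967 and 2030.2 in DMF + GSH. DMF was above both other groups, but the rise of 13.9% was the smallest called (log2FC 0.19 ± 0.05 (SE), adjusted p = 0.00787). Its call was lost under several alternatives, among them without Ctrl replicate 3 (adjusted p = 0.0648) and without 7 other libraries left out in turn. Vars, with a Ctrl mean of 6453 ± 382 (SD, n = 3), had a log2FC of 0.13 and was not called (adjusted p = 0.0610). Qars (chr9:108507706-108515941, plus strand) was the only cytosolic gene with a log2FC below 0. It was at 3355, 3495 and 2845 normalized counts in Ctrl replicates 1 to 3, 2727, 3129.7 and 2842 in DMF and 3015, 3555 and 3004 in DMF + GSH. DMF and Ctrl overlapped, although the log2 difference was below 0 in each replicate number (-0.30, -0.16 and -0.0020 for replicates 1 to 3), and it was not called (log2FC -0.15 ± 0.06 (SE), adjusted p = 0.0387). Qars belongs to the multi-tRNA synthetase complex and has no mitochondrial partner gene, since mitochondria make glutaminyl-tRNA by another route.

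**Figure D2:**
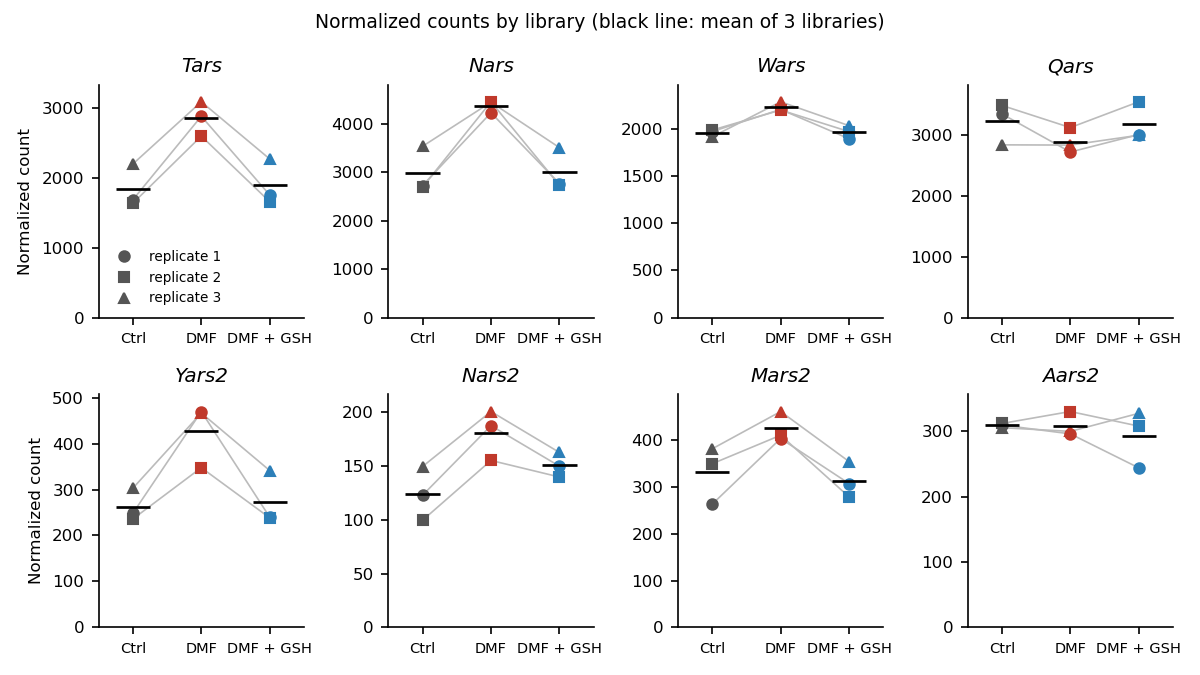
Normalized counts of 8 synthetase genes in each of the 9 libraries, with grey lines joining libraries of the same replicate number, symbols for the replicate numbers and black bars for the mean of 3 libraries; the vertical axes start at 0. In Tars, Nars and Yars2 every DMF library lies above every Ctrl and DMF + GSH library, whereas in Qars and Aars2 the groups overlap.

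The groupings by role are given beside the 17.6% of all genes called higher, or 3.60% with the batch covariate. By catalytic fold, 8 of 10 class I enzymes (median log2FC 0.46) and 10 of 10 class II enzymes (0.45) were called higher, and 0 and 4 with the batch covariate. The double enzyme Eprs was counted in class I only, although its 2 activities do not share a class. Among the 8 enzymes of the multi-tRNA synthetase complex 7 were called, with a median of 0.47, Qars being the exception, and 1 with the batch covariate. Of 13 cytosolic genes listed as textbook ATF4 targets, 12 were called, and of the 7 others 6 were, with medians of 0.43 and 0.46, and with the batch covariate 1 of 13 and 3 of 7. These are counts from lists chosen with results of these data known, and no test between the groupings was run.

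As members moved together, the 250 bases before the start of each gene were searched for the ATF4 motif TGATGNAAN on both strands, in RefSeq promoter sequences (GRCm38.p6) that were at hand for 13 of the 20 cytosolic and 14 of the 16 mitochondrial genes. The motif was present in 3 of 13 cytosolic promoters (23.1%), in 0 of 14 mitochondrial ones and in 3.44% of all 32851 promoters of the table. The third cytosolic match is not printed here, and likeness between matches follows from the motif searched. The matches of Gars and Tars are printed below with up to 10 bases either side, 5′ to 3′ on the gene's strand. Capitals mark the match, which in both genes is read on the other strand and so appears as NTTNCATCA.
Gars (chr6:55037960-55037988): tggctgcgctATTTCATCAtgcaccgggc
Tars (chr15:11399659-11399684): caggagtcccGTTGCATCAgctggtt
Gars lies on the plus strand and Tars on the minus strand, and the first base of the match stood 31 and 16 bases before the RefSeq start in this order. Gars had a log2FC of 0.39 in DMF, below the cytosolic median, and Tars, at 0.64, had the largest cytosolic value. A CACGTG box, the letters read by MYC and related factors, was found in 3 of 13 cytosolic promoters (23.1%), in 0 of 14 mitochondrial ones and in 6.02% of all promoters. It is shown for Farsb and Iars with 11 bases either side, and the third promoter with the box is not printed.
Farsb (chr1:78488920-78488947): tagacaggcatCACGTGagacagcccaa
Iars (chr13:49682050-49682077): accaatcgccaCACGTGttgtttgtagg
Farsb lies on the minus strand and Iars on the plus strand. The antioxidant response letters TGACNNNGC were found in 2 of 13 cytosolic promoters (Aars and Mars, 15.4%) and 2 of 14 mitochondrial ones (Aars2 and Lars2, 14.3%), against 10.2% of all promoters. A match describes letters in this window and is no evidence of binding.

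The mitochondrial genes moved less together. Of 16, 3 were called higher in DMF and 0 lower, against 17.6% of all genes called higher. Of these 3, 0 were called by limma-trend with the batch covariate, and DESeq2 with batch called Yars2. The median log2FC was 0.13, with 10 genes above 0 and 6 below, and by replicate number it was 0.13, 0.10 and 0.08. Without DMF replicate 1 it fell to 0.03, and without Ctrl replicate 3 it was 0.10. In the latter fit 2 of the 16 genes were called higher, where 1651 of all 11599 genes tested were called higher. In 5 genes (Mars2, Nars2, Rars2, Tars2 and Yars2) all 3 DMF libraries lay above all 3 Ctrl libraries, as in 21.6% of all genes tested. Precision was lower here: the fewest reads of a member in any library ranged from 54 to 1115, against 782 to 4796 for the cytosolic genes, and the SE of the log2FC ranged from 0.06 to 0.17, against 0.05 to 0.07.

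Yars2, the mitochondrial tyrosine enzyme (chr16:16302965-16309640, plus strand), had the largest change of all 36 genes. It was at 248, 236 and 303 normalized counts in Ctrl replicates 1 to 3, 469.7, 348 and 466 in DMF and 239.8, 238 and 341 in DMF + GSH. Each DMF library was above each Ctrl library, and the increase was 62.3% (log2FC 0.70 ± 0.10 (SE), adjusted p = 1.81e-05; 0.0181 with the batch covariate). Nars2, for asparagine, was at 123, 99.4 and 149 normalized counts in Ctrl replicates 1 to 3, 187, 155 and 200.3 in DMF and 149.6, 139.6 and 162 in DMF + GSH. The DMF libraries were higher than the Ctrl libraries but overlapped with DMF + GSH (log2FC 0.55 ± 0.12 (SE), adjusted p = 9.33e-04), and the call was lost without Ctrl replicate 2 (adjusted p = 0.0114). Mars2, for methionine, was at 263, 349 and 381 normalized counts in Ctrl replicates 1 to 3, 403, 410.0 and 461 in DMF and 307, 278 and 354 in DMF + GSH. The lowest Ctrl library was replicate 1, and the log2 difference was 0.61, 0.23 and 0.27 (log2FC 0.37 ± 0.10 (SE), adjusted p = 0.00458). The call of Mars2 did not hold without Ctrl replicate 1 or 3 or without any of the 3 DMF libraries (adjusted p from 0.0109 to 0.0641).

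The other 13 mitochondrial genes were not called. Ears2 was the least abundant, at 61.3, 65.0 and 89.6 normalized counts in Ctrl replicates 1 to 3, 102, 95.9 and 86.1 in DMF and 59.4, 75.0 and 78.8 in DMF + GSH, and its log2 differences of 0.72, 0.55 and -0.06 for replicates 1 to 3 did not share a direction (log2FC 0.41 ± 0.17 (SE), adjusted p = 0.0640). Rars2 (arginine) came nearest to the threshold at log2FC 0.24 and adjusted p = 0.0175. Pars2 (proline, 0.20), Iars2 (0.14), Lars2 (leucine, 0.13), Tars2 (threonine, 0.13) and Cars2 (cysteine, 0.06) were above 0. Aars2 (alanine, -0.0030), Vars2 (valine, -0.02), Sars2 (serine, -0.04), Wars2 (tryptophan, -0.06), Hars2 (histidine, -0.07) and Fars2 (phenylalanine, -0.15) were below 0. Lars2 was at 1323, 765 and 789 normalized counts in Ctrl replicates 1 to 3, 1473, 805 and 884 in DMF and 1118, 1020.1 and 999.6 in DMF + GSH. Replicate 1, the library of batch 1, was the highest of each group. The values of Iars2, Cars2, Fars2 and Ears2 may hold reads of opposite-strand neighbours, since these genes share 2034, 422, 501 and 89 exon bases with Rab3gap2, Naxd, Nrn1 and Ubfd1, with strand use in the counting not given in the sources used here.

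Setting each cytosolic gene beside the mitochondrial gene for the same amino acid gave 17 combinations, with Eprs and Fars2 entering more than once. The cytosolic log2FC was the larger in 16 of them, by a median of 0.32, and in 13 it was larger in all 3 replicate numbers. The widest gaps were for phenylalanine, at 0.67 for Farsa and 0.62 for Farsb over Fars2, and for histidine, at 0.60 for Hars over Hars2. For asparagine both genes rose alike, with log2FC 0.56 for Nars and 0.55 for Nars2. Tyrosine was the exception, with 0.48 for Yars and 0.70 for Yars2. At the level of sums, the ratio of cytosolic to mitochondrial synthetase reads within a library was 6.76, 7.24 and 8.00 in Ctrl, 8.02, 8.96 and 8.97 in DMF and 6.84, 7.0 and 7.88 in DMF + GSH. The DMF values were the highest 3 of the 9, but DMF replicate 1 exceeded Ctrl replicate 3 by little. These are descriptions, with no test over the members.

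**Figure D3:**
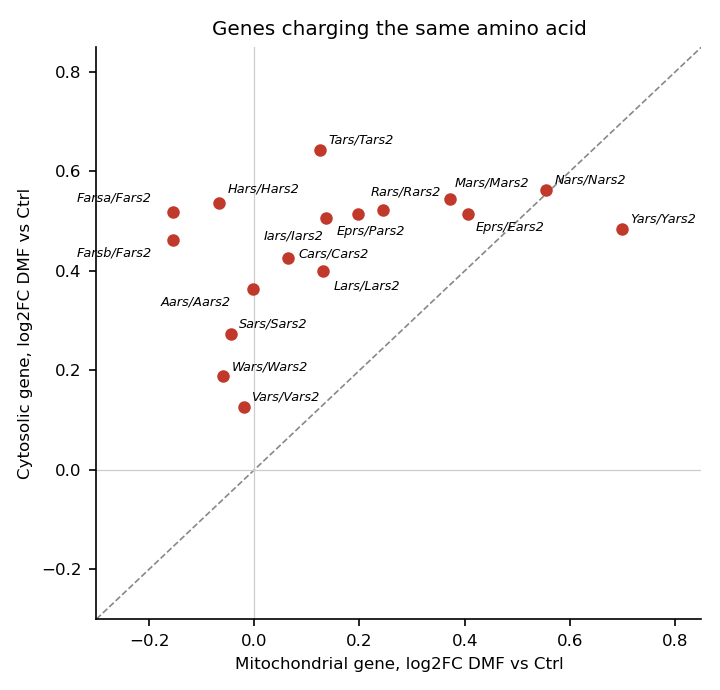
Log2FC of DMF over Ctrl for the cytosolic gene (vertical axis) and the mitochondrial gene (horizontal axis) charging the same amino acid, 1 point for each of 17 combinations; the dashed line marks equal change. Of the points, 16 lie above the line and Yars/Yars2 lies below it.

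With GSH added to DMF, most of the cytosolic transcripts fell. Between DMF + GSH and DMF, 17 of 20 cytosolic genes were called lower and 0 higher, where 15.6% of all genes tested were called lower and 13.7% higher, and the median log2FC was -0.42. In 18 of 20 all 3 DMF libraries lay above all 3 DMF + GSH libraries, found in 20.5% of all genes tested. This comparison shares the DMF libraries with the one against Ctrl, so the values stand side by side and are no separate evidence. Tars had a log2FC of -0.60 (adjusted p = 3.32e-07), and fell by 34.1%. Mars, Nars, Iars, Rars, Yars and Hars followed at -0.56, -0.55, -0.53, -0.52, -0.51 and -0.51. Not called were Wars (-0.18, adjusted p = 0.0108), Vars (-0.14, 0.0442) and Qars (0.14, 0.0691), the last with a value above 0 in all 3 replicate numbers. DESeq2 with batch called 12 of 20 lower, where it called 7.13% of all genes lower. In limma-trend with the batch covariate 1 of 20, Hars, was called lower, among 0.405% of all genes tested.

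Of the mitochondrial genes, Yars2 (log2FC -0.65, adjusted p = 4.46e-05) and Mars2 (-0.44, 0.00135) were called lower in DMF + GSH than in DMF, and 0 of 16 were called higher, where 15.6% of all genes tested were called lower. Neither was called by limma-trend with the batch covariate (adjusted p = 0.0285 and 0.0349), and DESeq2 with batch called Yars2. Leaving out DMF replicate 1 or DMF + GSH replicate 2 left the call of Yars2 only, and when DMF + GSH replicate 1 was left out Lars2 was called as well, higher in DMF + GSH (log2FC 0.25, adjusted p = 0.00879). Nars2 was not called (log2FC -0.26 ± 0.12 (SE), adjusted p = 0.0938), its DMF + GSH libraries overlapping with both other groups. The median of the 16 was -0.10, and -0.03 without DMF replicate 1.

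Directly between DMF + GSH and Ctrl, 0 of 36 members were called by limma-trend, where 0.0259% of all genes tested (3 of 11599) were called in either direction. At an unadjusted p under 0.05 there were 599 genes and 1 member, Nars2 (log2FC 0.30 ± 0.12 (SE), adjusted p = 0.827; unadjusted p = 0.0231), and edgeR called 4 genes, 0 of them members. The log2FC of the 20 cytosolic genes ran from -0.03 to 0.07 with a median of 0.01, and their 95% confidence intervals all lay between -0.16 and 0.21. A difference of the size seen for the median cytosolic gene in DMF would thus lie outside these intervals. The mitochondrial log2FC ran from -0.09 to 0.30, and the intervals, wider at these levels, lay between -0.37 and 0.55.

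**Figure D4:**
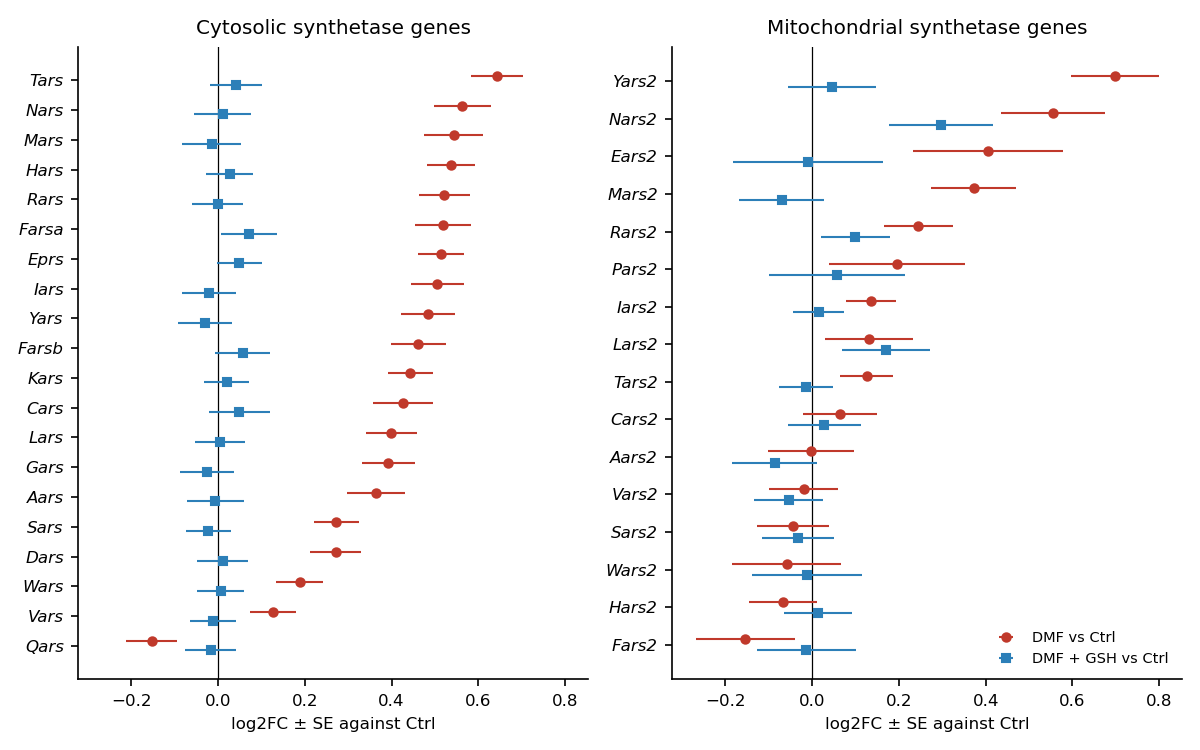
Log2FC ± SE against Ctrl for DMF (red circles) and for DMF + GSH (blue squares), on the log2(normalized count + 1) scale, for the 20 cytosolic (left) and 16 mitochondrial (right) genes; both comparisons use the same Ctrl libraries. The blue points of the cytosolic genes stay between -0.03 and 0.07, and the red points reach 0.64.

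Summed levels showed the same 3 groups. The 20 cytosolic genes together held 48011, 47821 and 56651 normalized counts in Ctrl, 64614, 64208 and 68572 in DMF and 47655, 48128 and 57221 in DMF + GSH. DMF lay above both other groups in each library, and replicate 3 was the highest in every group. The replicate 3 excess was present in DMF + GSH too, where Lyz2, Csf1r and Adgre1 were at 5.83, 5.83 and 3.89, and the part of the myeloid cells in the Ctrl replicate 3 value was not tested. The mitochondrial genes together held 7098, 6602 and 7083 in Ctrl, 8052, 7164 and 7644 in DMF and 6963, 6876 and 7261 in DMF + GSH. DMF was again the highest group, except that DMF replicate 2 was below DMF + GSH replicate 3.

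**Figure D5:**
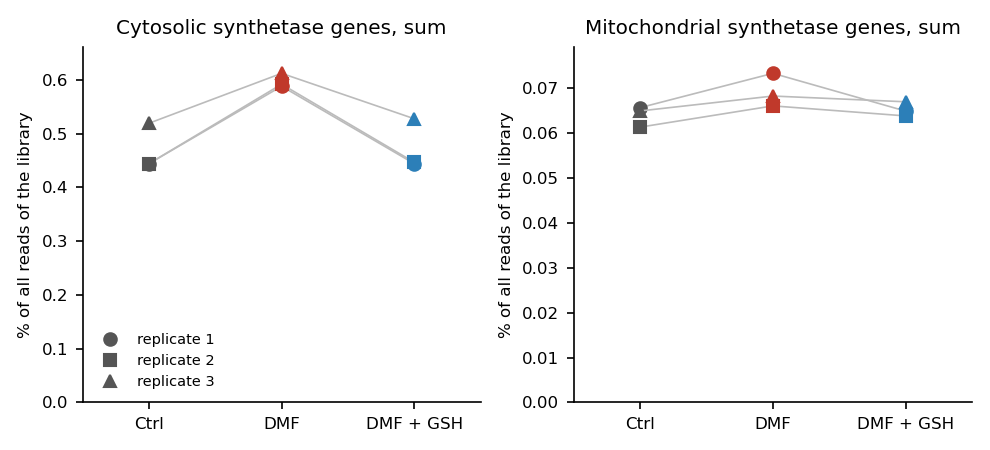
Summed reads of the 20 cytosolic (left) and 16 mitochondrial (right) synthetase genes as a percentage of all reads of each library, with grey lines joining the same replicate number and vertical axes from 0. The cytosolic sum is 0.444% to 0.519% in Ctrl, 0.588% to 0.612% in DMF and 0.444% to 0.528% in DMF + GSH.

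Genes that work beside the synthetases were read from further lists, whose counts stand beside the 17.6% of all genes called higher in DMF, or 3.60% with the batch covariate. Of the 3 scaffold genes of the multi-tRNA synthetase complex, 2 were called higher in DMF. Eef1e1 was at 343, 429 and 567 normalized counts in Ctrl replicates 1 to 3, 805, 764 and 905 in DMF and 432, 420.2 and 541 in DMF + GSH. It did not overlap between DMF and Ctrl and rose more than any synthetase (log2FC 0.91 ± 0.09 (SE), adjusted p = 2.16e-07; 0.00602 with the batch covariate). Aimp2 also rose (log2FC 0.50 ± 0.09 (SE), adjusted p = 2.12e-04; 0.0297 with the batch covariate), whereas Aimp1 was not called (log2FC 0.15, adjusted p = 0.0559). For tRNA proofreading, maturation and export 3 of 6 genes were called higher, and 1 of 6 with the batch covariate, led by Dtd1, which removes D-amino acids from tRNA (log2FC 0.57, adjusted p = 1.90e-04). In the mitochondrial amidotransferase and formylation list 0 of 4 were called, the largest value being 0.28 for Gatb (adjusted p = 0.0898).

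Cytosolic elongation factors went both ways, with 2 of 5 called higher and 1 lower, and 1 and 0 with the batch covariate. Eef1d, a nucleotide exchange factor, rose (log2FC 0.50, adjusted p = 3.91e-07), and Eef1a1, which brings charged tRNA to the ribosome, fell (log2FC -0.20, adjusted p = 0.00625), the latter not called with the batch covariate (0.133). Of 4 mitochondrial elongation factors 2 were called higher, and 0 with the batch covariate, with Gfm1 at 0.46 (adjusted p = 5.10e-06; 0.0128 with the batch covariate). Outside the 36 members, Tarsl2, another cytosolic threonine enzyme, was not called (0.12, adjusted p = 0.346), unlike Tars.

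Of 11 genes of uncharged tRNA sensing and the amino acid response, 5 were called higher in DMF and 0 lower, with a median log2FC of 0.53, and 0 with the batch covariate. Sesn2, which restrains mTORC1 when leucine is scarce, had the largest value (log2FC 0.94 ± 0.13 (SE), adjusted p = 8.74e-06). The transcript of Atf4 itself, named here although outside the rule for named genes, was at 2717, 2582 and 3255 normalized counts in Ctrl replicates 1 to 3, 4060.5, 3781 and 4477 in DMF and 2666, 2605 and 3553 in DMF + GSH. Its DMF libraries lay above the others (log2FC 0.53 ± 0.06 (SE), adjusted p = 5.17e-07). Asns, the asparagine synthetase and a common readout of ATF4, also chosen after its values were seen, was at 292, 289 and 530.4 normalized counts in Ctrl replicates 1 to 3, 548, 782 and 579 in DMF and 306, 303 and 423 in DMF + GSH. The Ctrl libraries were wide apart, yet all 3 DMF libraries were above them (log2FC 0.82 ± 0.15 (SE), adjusted p = 1.97e-04). Ddit3, the stress gene CHOP, was not called (log2FC -0.11 ± 0.14 (SE), adjusted p = 0.551). In DMF + GSH against DMF, 6 of the 11 were called lower and 0 higher, where 15.6% of all genes were called lower, and 0 were called with the batch covariate.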

How the data were processed

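Poly(A) RNA of 9 Tc17 libraries was read as single reads of 50 bases. The authors aligned them to GRCm38 with STAR 2.4.0b, counted reads per gene with featureCounts and divided each library by a DESeq2 size factor, and these normalized counts, a signal that is no longer a whole-number count, were the deposited values used. The step between values of a library returned whole reads in 100% of cases (tolerance 0.01 reads), which were used for depth, edgeR 4.0.16 and DESeq2 1.42.0. Columns of the authors' own comparison (log2 fold change, a test score, p-value and adjusted p-value) are deposited in the same table and were not used.

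The test was limma-trend (limma 3.58.1, R 4.3.3) on log2(normalized count + 1) over 11599 genes whose mean reached 10, in 1 fit of all 9 libraries with group and replicate number, Benjamini-Hochberg adjusted over all genes tested and called under 0.01. It was first run on simulated counts that were drawn with a shift for each replicate number. That run therefore cannot show whether the block or the batch covariate suits these data better. Libraries of the same number deviated together: deviations from group means correlated at 0.447 to 0.578 in the 9 same-number pairs. In the 18 other pairs the correlation was at most -0.0621. Deviations within a group sum to 0, which by itself pulls these other pairs below 0 when same-number pairs are above it. The study's batch covariate took the place of the block as an alternative. Members and lists were chosen with earlier results of these data known. Values of every library are given for the 12 called cytosolic genes of largest change, all called mitochondrial genes, cytosolic genes below 0, and Wars, Gars and Kars, and of the other lists at most 12 genes are named by the rule, beside the marker genes. Atf4 and Asns were added outside the rule, after their values were seen. Some items are not reported here. Exon lengths and positions came from GENCODE annotation of GRCm38. Strand use in the counting was not given in the sources used here, and depth intervals were not needed, since every member had at least 54 reads in each library.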

Additional observations from a re-analysis of the deposited data

How the results depend on the processing

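No fold change of a called member changed sign under any alternative run. Calls depended on how replicate numbers entered the fit. With no replicate block and a batch term in its place, 4 cytosolic and 0 mitochondrial genes were called in DMF against Ctrl, of 834 genes in all, and 1 and 0 in DMF + GSH against DMF, of 95. With no replicate block and no batch term these were 3 and 0 of 583, and 0 and 0 of 34. DESeq2 on recovered reads with the batch term called 1896 genes, 14 cytosolic and 1 mitochondrial member (Yars2) in DMF against Ctrl, and 1480, 12 and 1 in DMF + GSH against DMF. Requiring an absolute log2FC of at least 0.75 left 789 and 660 genes and 0 members in either comparison. In DMF + GSH against Ctrl, 3 genes were called, against 23 with no minimum on the mean, 1 with quantile normalization, 1 with the fold requirement and 0 with batch in place of the block, with neither term or with DESeq2. Quantile normalization moved the mitochondrial median of DMF against Ctrl to 0.0861. Leaving out each library in turn, that median ran from 0.0270 to 0.140. In DMF + GSH against DMF it ran from -0.126 to -0.0309, with 1 to 3 mitochondrial genes called, of 2314 to 3374 genes in all. In DMF + GSH against Ctrl it ran from -0.0071 to 0.0432, the cytosolic median from -0.0291 to 0.0368 and the genes called from 0 to 6. Where an arm was left with 2 libraries the spread was pooled over all groups. Low read numbers limit Ears2 and Pars2 most, with at least 54 and 84 reads in each library.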
